A study of Mus musculus with 12 samples.

Results

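The mitochondrial ribosomal protein genes are the nuclear genes whose products, with RNA made in the mitochondrion, form the ribosome of that organelle. The family was taken as every entry whose symbol starts with Mrpl or Mrps and a number, which gave 76 of 23235 entries in fetal liver and 77 of 24421 in fibroblasts. It was chosen by a liver result, since Mrps11 had one of the lowest liver p-values, so every liver difference between genotypes below is a description and not a test. The fibroblast libraries had no part in that choice.

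As background, the mitochondrial ribosome translates the few mRNAs of the mitochondrial genome, which encode core subunits of the respiratory chain and the ATP synthase. Its small subunit holds the mRNA and the decoding centre, and its large subunit joins amino acids and passes the new chain through an exit tunnel at the inner membrane. Some members have a counterpart in bacteria and others arose in mitochondria. All are translated in the cytosol and imported. Fetal liver at mid-gestation is the main site of red cell formation, and developing red cells need mitochondria for haem synthesis.

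RNA sequencing compared mice and cells homozygous for the G2A allele of Rpt2 with wild type (WT). Rpt2, encoded by Psmc1, is an ATPase of the proteasome, and G2A replaces the glycine to which its lipid anchor, N-myristate, is attached. The G2A livers (genotype Rpt2G2A/G2A, n = 3) and WT livers (n = 3) came from untreated littermate embryos at E12.5, mid-gestation, without a statement of which numbers were littermates. The G2A fibroblasts and WT fibroblasts were untreated immortalized mouse embryonic fibroblasts (MEFs), labelled with 3 samples per genotype; how they were immortalized, and whether the libraries came from separate lines or cultures, is not given in the sources used here. No column matched the third G2A MEF sample, which was not analysed here, so 2 G2A and 3 WT MEF libraries were compared. The allele changes a codon and the values hold no base calls, so the genotype of a library was not checked. Because separate MEF lines are not stated, p-values there measure only the spread between these libraries.

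Liver values were in FPKM (fragments normalized to transcript length and library size), with column totals of 792987 to 840762 and unknown read depth. MEF values were normalized reads per gene (whole reads divided by a size factor), from 36415586 to 37695116 gene reads per library. The hepatoblast markers Alb, Afp and their companions were all detected in liver, with a summed level of 10002.8 to 14461.8 FPKM in G2A livers and 10405.2 to 12867.8 FPKM in WT livers. Mesenchymal markers summed to 333148 to 345652 normalized reads in G2A MEFs and 578569 to 974553 in WT MEFs. In every MEF library 5 of 15 erythroid markers were at 0. The erythroid list as a whole summed to 4377 to 5144 normalized reads in G2A MEFs and 4076 to 5473 in WT MEFs. Hepatoblast markers were also read in MEFs, with sums of 5577 to 8828 normalized reads in G2A MEFs and 872 to 32783 in WT MEFs. G2A liver 3 stood apart from G2A livers 1 and 2, and WT MEF 3 from the other WT MEFs. Without G2A liver 3 limma called 3140 of 12795 genes, against 3 of 12938 with it, and without WT MEF 3 it called 3076 of 12963 genes, against 0 of 13241 with it. Values without these libraries are therefore given beside the counts they touch.

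In G2A liver the family had lower values throughout. All 76 members had a lower fitted level in G2A than in WT liver, with a median log2 fold change of -0.25, against 0.01 for all 12938 genes tested (limma on log2(FPKM + 1)). A fold change below 0 was found in 47.3% of all genes and one above 0 in 52.7%. The members ran over a narrow range, -0.52 for Mrps12 to -0.04 for Mrpl24, and the G2A mean was 69.3% to 97.1% of the WT mean. Every member passed the filter on low values (at least 1 FPKM in at least 3 libraries). Under quantile normalization 74 of 76 were still below 0, Mrpl24 and Mrpl23 were at 0.05 and 0.02, and the median was -0.19.

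In 62 of 76 members every G2A liver was below every WT liver, and in 0 every G2A liver was above, where the shares among all genes tested were 15.7% and 11.8%. No member passed an adjusted p of 0.05 (Benjamini-Hochberg over all genes), a threshold that 0.00773% of all genes passed as lower and 0.0155% as higher, 0.0232% together. At an unadjusted p under 0.05, 61 members were lower and 0 higher, beside 12.4% and 9.07% of all genes. Without G2A liver 3, 47 of 76 members were called lower and 0 higher, beside 12.2% and 12.3% of 12795 genes, and the median was -0.28. Nothing is read from these counts, because the liver contrast chose the family.

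The lower level was shared by all 3 G2A livers and by both subunits. Averaged over the members, log2(FPKM + 1) in G2A livers 1, 2 and 3 differed from the mean of the WT livers by -0.26, -0.31 and -0.20, and in WT livers 1, 2 and 3 by -0.04, 0.04 and 0.01. The 76 members together held 0.544%, 0.510% and 0.586% of all FPKM in G2A livers 1 to 3, against 0.658%, 0.685% and 0.660% in WT livers 1 to 3. No G2A liver reached the lowest WT liver on either measure. The 26 small-subunit members had a median log2 fold change of -0.22 and did not overlap between genotypes in 19 cases, and the 49 large-subunit members had a median of -0.26 and did not overlap in 43. Among all genes tested 15.7% were lower in G2A liver without overlap. The 46 members with a bacterial counterpart (median -0.25, 38 without overlap) and the 29 that are specific to mitochondria (median -0.24, 24 without overlap) lay close together. The remaining member, Mrps36, once counted as a ribosomal protein, is now known as a part of the 2-oxoglutarate dehydrogenase complex, and its log2 fold change was -0.26, with overlapping groups.

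**Figure D1:**
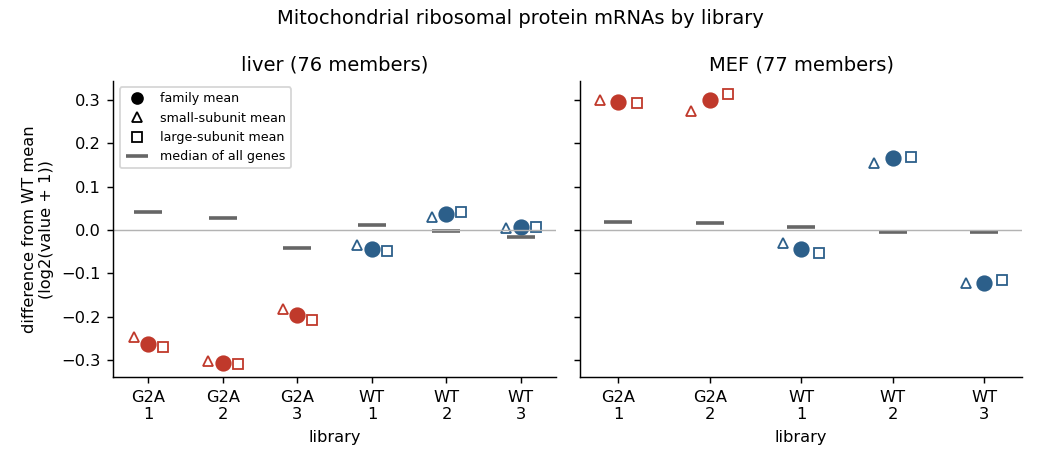
Difference of each library from the WT mean of its tissue, in log2(value + 1), on the vertical axis, with the libraries along the horizontal axis (G2A red, WT blue). Filled circles are the mean over all members, open triangles and squares the means of the small and large subunits, and grey dashes the median of all genes tested. The 3 G2A livers lie between -0.31 and -0.20, below all WT livers, and both G2A MEFs lie at 0.30, above WT MEFs that spread over -0.12 to 0.16.

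Mrps11 and Mrpl46 are shown with their start regions because they are neighbours that start back to back and were both among the 5 lowest members in liver. Mrps11, the counterpart of a bacterial protein of the small subunit's platform, lies at chr7:85928005-85937875 on the plus strand (ENSMUSG00000030611.4, GENCODE vM1, NCBIM37). Mrpl46, a mitochondria-specific protein of the large subunit, lies at chr7:85920122-85928417 on the minus strand (ENSMUSG00000030612.5). In RefSeq's GRCm38.p6 annotation their starts are 42 bases apart, and their promoter windows (250 bases before to 50 after the start) share 141 bases, chr7:78783040-78783180. The windows read as follows, each 5′ to 3′ on the strand of its own gene, with the shared bases in capitals: chr7:78782881-78783180 for Mrps11 and chr7:78783040-78783339 for Mrpl46.
Mrps11: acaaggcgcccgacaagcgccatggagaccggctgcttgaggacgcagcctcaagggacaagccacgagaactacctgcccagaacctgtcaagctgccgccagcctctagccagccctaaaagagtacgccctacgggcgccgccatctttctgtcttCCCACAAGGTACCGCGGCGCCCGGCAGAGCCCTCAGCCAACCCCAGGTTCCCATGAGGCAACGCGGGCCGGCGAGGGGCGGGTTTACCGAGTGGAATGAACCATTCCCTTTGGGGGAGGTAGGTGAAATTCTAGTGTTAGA
Mrpl46: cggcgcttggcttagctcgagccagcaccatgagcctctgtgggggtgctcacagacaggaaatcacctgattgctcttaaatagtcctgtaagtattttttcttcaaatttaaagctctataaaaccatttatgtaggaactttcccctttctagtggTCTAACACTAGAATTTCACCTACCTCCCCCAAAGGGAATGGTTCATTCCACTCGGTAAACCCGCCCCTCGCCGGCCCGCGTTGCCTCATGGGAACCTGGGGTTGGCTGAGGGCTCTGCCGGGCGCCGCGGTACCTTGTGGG

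Mrps11 measured 31.8, 29.4 and 30.2 FPKM in G2A livers 1 to 3, against 42.0, 42.5 and 44.4 FPKM in WT livers 1 to 3. The means were 30.5 ± 1.21 FPKM in G2A livers and 43.0 ± 1.24 FPKM in WT livers (SD, n = 3 each), with a log2 fold change of -0.48 (SE 0.056). The liver p-value of Mrps11 chose the family, so this difference is a description. Mrpl46 measured 31.6, 31.2 and 37.0 FPKM in G2A livers and 40.6, 46.3 and 45.7 FPKM in WT livers, a log2 fold change of -0.40 (SE 0.09). All G2A livers were below all WT livers for both genes, G2A liver 3 being the highest G2A library for Mrpl46 only. In MEFs neither gene separated the genotypes. Mrps11 measured 1057 and 1086 normalized reads in G2A MEFs 1 and 2, against 943, 1171 and 890.0 in WT MEFs 1 to 3, and WT MEF 2 exceeded both G2A libraries. Mrpl46 measured 569 and 669 normalized reads in G2A MEFs and 592, 693 and 498 in WT MEFs, again with WT MEF 2 highest. Their MEF log2 fold changes were 0.11 (SE 0.165, adjusted p = 0.78) and 0.07 (SE 0.205, adjusted p = 0.897); that of Mrpl46 turned to -0.055 without WT MEF 3. The annotated genes overlap by 413 bases on opposite strands, and whether counting used strand is not given in the sources used here, so reads in that stretch may be counted for either gene.

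Mrps12, the counterpart of the bacterial protein at the decoding centre, had the lowest log2 fold change of the family in liver. It measured 48.6, 53.1 and 54.0 FPKM in G2A livers 1 to 3, against 78.2, 73.0 and 73.4 FPKM in WT livers 1 to 3. Its mean was 51.9 ± 2.9 FPKM in G2A livers and 74.9 ± 2.92 FPKM in WT livers (SD, n = 3 each), 69.3% of the WT level, for a log2 fold change of -0.52 (SE 0.063). In MEFs it measured 865 and 781 normalized reads in G2A MEFs and 831, 896 and 695 in WT MEFs, with a log2 fold change of 0.03 (SE 0.169, adjusted p = 0.936), and the groups overlapped. Its start lies 147 bases from that of Sars2, the mitochondrial seryl-tRNA synthetase on the opposite strand, which had a log2 fold change of -0.42 in liver and 0.10 in MEFs. Its promoter window (chr7:28741772-28742071, minus strand, GRCm38.p6) is shown because it holds the letters of the ETS and YY1 motifs described below, set in capitals.
Mrps12: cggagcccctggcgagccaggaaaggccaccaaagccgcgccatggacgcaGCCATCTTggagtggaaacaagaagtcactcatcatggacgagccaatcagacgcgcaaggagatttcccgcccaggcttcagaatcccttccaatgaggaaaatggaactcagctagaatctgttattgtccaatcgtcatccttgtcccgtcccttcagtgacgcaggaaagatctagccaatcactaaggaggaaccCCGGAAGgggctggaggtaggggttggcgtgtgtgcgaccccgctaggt

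Mrps24, the counterpart of a bacterial protein at the mRNA entry, was the third small-subunit member among the 10 lowest in liver. It measured 42.6, 39.3 and 41.6 FPKM in G2A livers and 54.1, 54.3 and 52.4 FPKM in WT livers, a log2 fold change of -0.37 (SE 0.054), with no overlap between genotypes. The annotated gene of Mrps24 shares 2264 bases with Urgcp on the same strand, so its reads are uncertain in both tissues. Mrps25 and Mrps6 were among the 5 members with the highest liver log2 fold change. Mrps25, a mitochondria-specific protein, measured 15.8, 14.9 and 14.9 FPKM in G2A livers and 16.5, 15.6 and 16.2 FPKM in WT livers, and Mrps6 measured 35.8, 33.3 and 32.0 FPKM in G2A livers and 34.3, 35.3 and 37.7 FPKM in WT livers. Both overlapped between genotypes, with log2 fold changes of -0.08 (SE 0.061) and -0.08 (SE 0.067). Mrps6 shares 29152 bases on the same strand with Slc5a3, an inositol transporter gene, so its reads are uncertain.

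Of the 10 lowest liver members 7 belong to the large subunit. Mrpl20, a bacterial-type protein that binds ribosomal RNA early in assembly of the bacterial subunit, measured 121, 126 and 139.7 FPKM in G2A livers 1 to 3, against 164, 178 and 177 FPKM in WT livers 1 to 3. Mrpl37, a mitochondria-specific member, measured 44.4, 44.1 and 45.2 FPKM in G2A livers and 56.1, 60.5 and 61.6 FPKM in WT livers. In both genes every G2A liver was below every WT liver, with log2 fold changes of -0.43 (SE 0.071) and -0.41 (SE 0.056). The mitochondria-specific Mrpl42 measured 180.2, 161 and 171 FPKM in G2A livers and 219.5, 224 and 230.4 FPKM in WT livers (log2 fold change -0.40), and Mrpl55 measured 43.6, 42.8 and 48.4 FPKM in G2A livers and 57.3, 60.9 and 59.7 FPKM in WT livers (log2 fold change -0.39). Neither overlapped. Mrpl16, the counterpart of a bacterial protein near the tRNA sites, measured 31.9, 27.1 and 39.1 FPKM in G2A livers and 42.2, 42.7 and 42.8 FPKM in WT livers. Its SE was the largest of these 10, with G2A liver 3 just under the WT range, and its log2 fold change was -0.38 (SE 0.127).

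Some of the named members lie at the exit tunnel. Mrpl22 was named for a low liver log2 fold change, and Mrpl24 and Mrpl45 for high ones. The liver spread between these members therefore follows from that choice, and differences between members were not tested. In bacteria the counterparts of Mrpl22, Mrpl23 and Mrpl24 line or surround the tunnel, and Mrpl45, which is specific to mitochondria, sits at the tunnel exit and contacts the inner membrane. Mrpl22 measured 67.7, 64.4 and 67.3 FPKM in G2A livers and 80.1, 92.5 and 88.3 FPKM in WT livers (log2 fold change -0.38, SE 0.067) and did not overlap. Mrpl23 measured 177, 167 and 189 FPKM in G2A livers and 183, 207 and 184 FPKM in WT livers (log2 fold change -0.10), and Mrpl24 69.1, 66.1 and 65.1 FPKM in G2A livers and 66.5, 69.3 and 70.5 FPKM in WT livers (log2 fold change -0.04, SE 0.052). Both overlapped, and both fold changes turned above 0 under quantile normalization. Mrpl45 measured 29.5, 30.7 and 28.0 FPKM in G2A livers and 31.0, 32.0 and 30.9 FPKM in WT livers, a separation of -0.09 on the log2 scale (SE 0.058) in which the highest G2A liver was just under the lowest WT liver. Mrpl50, mitochondria-specific and among the 5 highest in liver, measured 38.5, 38.5 and 45.4 FPKM in G2A livers and 43.2, 44.0 and 41.1 FPKM in WT livers and overlapped because G2A liver 3 exceeded every WT liver (log2 fold change -0.07, SE 0.08).

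The levels of the members in liver spanned more than an order of magnitude on the FPKM scale, which is per length. In WT liver the highest were Mrps21, Mrpl52, Mrpl42, Mrpl23 and Mrpl30. Mrps21 averaged 205 ± 17.2 FPKM in G2A livers and 240.5 ± 8.53 FPKM in WT livers, Mrpl52 181 ± 10.6 and 228 ± 15.0 FPKM, and Mrpl30 148 ± 5.01 and 175 ± 8.67 FPKM in the same order (SD, n = 3 each). The WT libraries of Mrpl52 spanned those of Mrpl42 and overlapped those of Mrps21, and the WT libraries of Mrpl23 and Mrpl30 also overlapped, so the order of these neighbours is not resolved. The lowest were Mrpl17, Mrpl19, Mrpl35, Mrps25 and Mrpl11. Mrpl17 averaged 9.42 ± 0.601 FPKM in G2A livers and 10.8 ± 0.196 FPKM in WT livers, and the mean of Mrpl19 in G2A livers was 90.4% of its mean in WT livers. Mrpl35 averaged 13.3 ± 1.01 FPKM in G2A livers and 15.8 ± 0.977 FPKM in WT livers, and Mrpl11, a protein at the stalk base, 13.9 ± 0.756 and 16.7 ± 1.04 FPKM. None of these 4 overlapped between genotypes. Across the 76 members the liver log2 fold change and the WT level had a Pearson r of -0.35 and a Spearman rho of -0.42, given as a description over genes measured in the same 6 libraries.

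**Figure D2:**
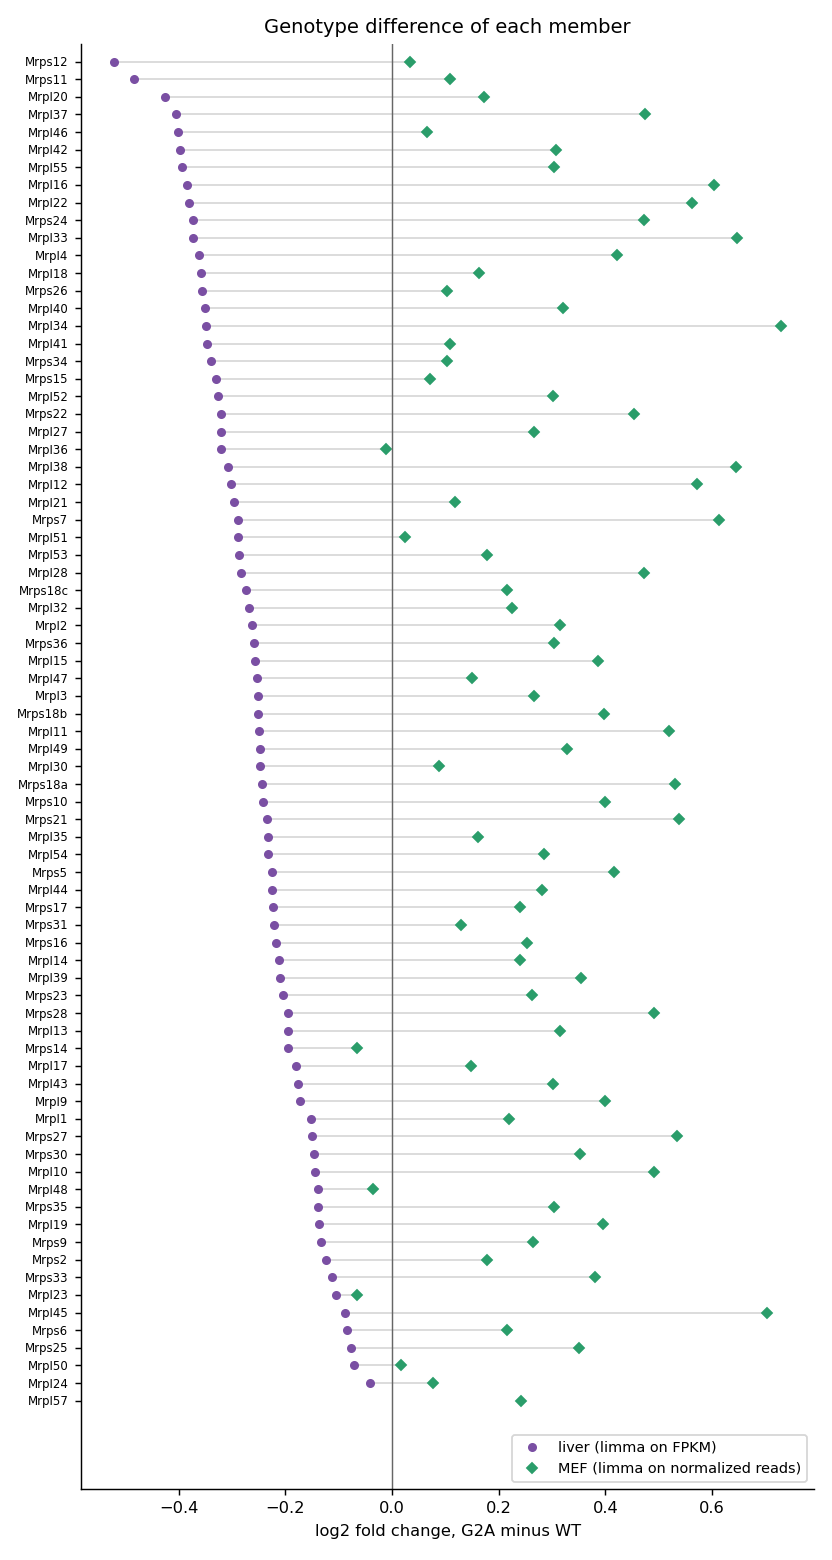
Log2 fold change, G2A minus WT, of each member (horizontal axis) in liver (purple circles, limma on log2(FPKM + 1)) and in MEFs (green diamonds, limma on log2(normalized reads + 1)), ordered by the liver value. All 76 liver points lie left of 0 and 73 of 77 MEF points right of it; Mrpl57 has no liver point because the liver values list it under its older symbol.

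In MEFs the same family leaned the other way. Of 77 members 73 had a higher fitted level in G2A than in WT MEFs, with a median log2 fold change of 0.30, against 0.01 for all 13241 genes tested, of which 51.6% were above 0 and 48.4% below. The range ran from -0.07 for Mrpl23 to 0.73 for Mrpl34, counterpart of a bacterial large-subunit protein, and the G2A mean was 94.8% to 163% of the WT mean. In 45 members both G2A libraries were above all 3 WT libraries and in 0 below, where 18.9% and 18% of all genes did so. Every member passed the filter (at least 10 normalized reads in at least 2 libraries), with between 485 and 4169 recovered reads per library.

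No single member passed the test in MEFs. By limma 0 of 77 members were called at an adjusted p of 0.05, beside 0% of all genes in either direction, and 20 had an unadjusted p under 0.05 as higher and 0 as lower, beside 6.9% and 7.48% of all genes. By edgeR's quasi-likelihood test on the recovered whole reads, 0 members were called beside 0% of 13261 genes, and 19 had an unadjusted p under 0.05 as higher and 0 as lower, beside 6.04% and 7.83%. Without WT MEF 3 limma called 11 members, all higher: Mrpl10, Mrpl22, Mrpl33, Mrpl34, Mrpl38, Mrpl45, Mrps7, Mrps18a, Mrps22, Mrps24 and Mrps27. That is 11 of 77 higher and 0 lower, beside 11.9% of all 12963 genes higher and 11.8% lower, so the share called as higher lay near that of all genes. In that setting 64 of 77 members were above 0 and the median was 0.24. Across the 14 other settings and tests tried, 62 of 77 members were above 0 in every one.

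The WT MEFs were less alike than the G2A MEFs over this family. The mean of the members differed from that of the WT MEFs by 0.30 in both G2A libraries, and by -0.04, 0.16 and -0.12 in WT MEFs 1, 2 and 3. Members above the WT mean numbered 70 and 72 in G2A MEFs 1 and 2, and 26, 71 and 24 in WT MEFs 1, 2 and 3. WT MEF 2 thus lay between the G2A libraries and the other WT libraries. The small subunit (26 members, median 0.26, 16 without overlap) and the large subunit (50 members, median 0.30, 28 without overlap) were alike in direction, as were members with a bacterial counterpart (46, median 0.26, 27 without overlap) and mitochondria-specific members (30, median 0.30, 17 without overlap). All members without overlap were higher in G2A MEFs, as were 18.9% of all genes tested.

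The 5 members with the smallest MEF p-values were Mrps7, Mrpl45, Mrpl33, Mrpl10 and Mrps18a, each at an adjusted p of 0.269 by limma. Mrps7, the counterpart of a bacterial protein of the small subunit's head, measured 3454 and 3483 normalized reads in G2A MEFs 1 and 2, against 2093, 2411 and 2315 in WT MEFs 1 to 3. Its mean was 3469 ± 20.3 normalized reads in G2A MEFs (SD, n = 2) and 2273 ± 163 in WT MEFs (SD, n = 3), a log2 fold change of 0.61 with a 95% interval of 0.34 to 0.89, and higher in both G2A libraries. Without WT MEF 3 its adjusted p was 0.0123 by limma, in a setting where 23.7% of all genes were called. Without WT MEF 1 it was 0.657 by limma, and 0 genes were called without WT MEF 1 or without WT MEF 2. The same gene measured 52.1, 50.4 and 57.9 FPKM in G2A livers and 61.7, 68.0 and 66.9 FPKM in WT livers, the opposite order, with a log2 fold change of -0.29. The annotated gene of Mrps7 shares 127 bases with Gga3 and 119 with Mif4gd on the opposite strand. Gga3 starts 224 bases from Mrps7, and had log2 fold changes of -0.03 in liver and 0.28 in MEFs.

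Mrpl45, described above at the tunnel exit, had one of the 5 smallest liver differences and one of the largest in MEFs. It measured 2949.5 and 3198 normalized reads in G2A MEFs 1 and 2, against 1669, 1915 and 2099 in WT MEFs 1 to 3, a log2 fold change of 0.70 (95% interval 0.36 to 1.05). Mrpl33, the counterpart of a small bacterial large-subunit protein, measured 1554 and 1594 normalized reads in G2A MEFs and 1037, 1077 and 908 in WT MEFs. In both genes every G2A MEF was above every WT MEF. The log2 fold change of Mrpl33 was 0.65 (95% interval 0.31 to 0.98) in MEFs and -0.37 in liver, where it measured 96.0, 98.7 and 106 FPKM in G2A livers and 128, 133 and 129 FPKM in WT livers. Its annotated gene overlaps Rbks over 73189 bases on the opposite strand and Bre over 4289 on the same strand, so its reads are uncertain.

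Mrpl10 anchors the stalk of Mrpl12 copies that recruits translation factors to the large subunit, and Mrpl11 sits at the base of the stalk. Mrpl10 measured 3009 and 3079 normalized reads in G2A MEFs and 2013, 2127 and 2368 in WT MEFs, and Mrpl11 1938 and 1887 normalized reads in G2A MEFs and 1209.7, 1527 and 1284 in WT MEFs. Neither overlapped, with log2 fold changes of 0.49 (SE 0.115, adjusted p = 0.269) and 0.52 (SE 0.142, adjusted p = 0.282). Mrpl12, picked after its values were seen, measured 3668 and 3775 normalized reads in G2A MEFs and 2237, 2959 and 2368 in WT MEFs, also without overlap (log2 fold change 0.57, SE 0.151, adjusted p = 0.279), and its liver values overlapped (log2 fold change -0.30). In liver Mrpl10 measured 42.5, 42.3 and 42.8 FPKM in G2A livers and 45.4, 46.9 and 49.2 FPKM in WT livers, the opposite order and again without overlap. Mrps18a, which despite its symbol sits in the large subunit, measured 2229 and 2312 normalized reads in G2A MEFs and 1413, 1594 and 1722 in WT MEFs, a log2 fold change of 0.53 (SE 0.128). Mrpl34, named after its values were seen, had the highest MEF fold change, with 1483 and 1465 normalized reads in G2A MEFs and 939, 1076 and 695 in WT MEFs.

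The 4 members below 0 in MEFs were Mrps14, Mrpl23, Mrpl48 and Mrpl36, and none of them separated the genotypes. Mrps14 measured 1120.2 and 1172 normalized reads in G2A MEFs and 1311, 1279 and 1029 in WT MEFs, and Mrpl23 1071 and 1034 normalized reads in G2A MEFs and 1243, 1161 and 927 in WT MEFs. For each the G2A libraries lay inside the WT range, with log2 fold changes of -0.07 (95% interval -0.46 to 0.33) and -0.07 (-0.49 to 0.36). Mrpl48 and Mrpl36 had values of -0.04 and -0.01, both of which turned above 0 under quantile normalization.

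**Figure D3:**
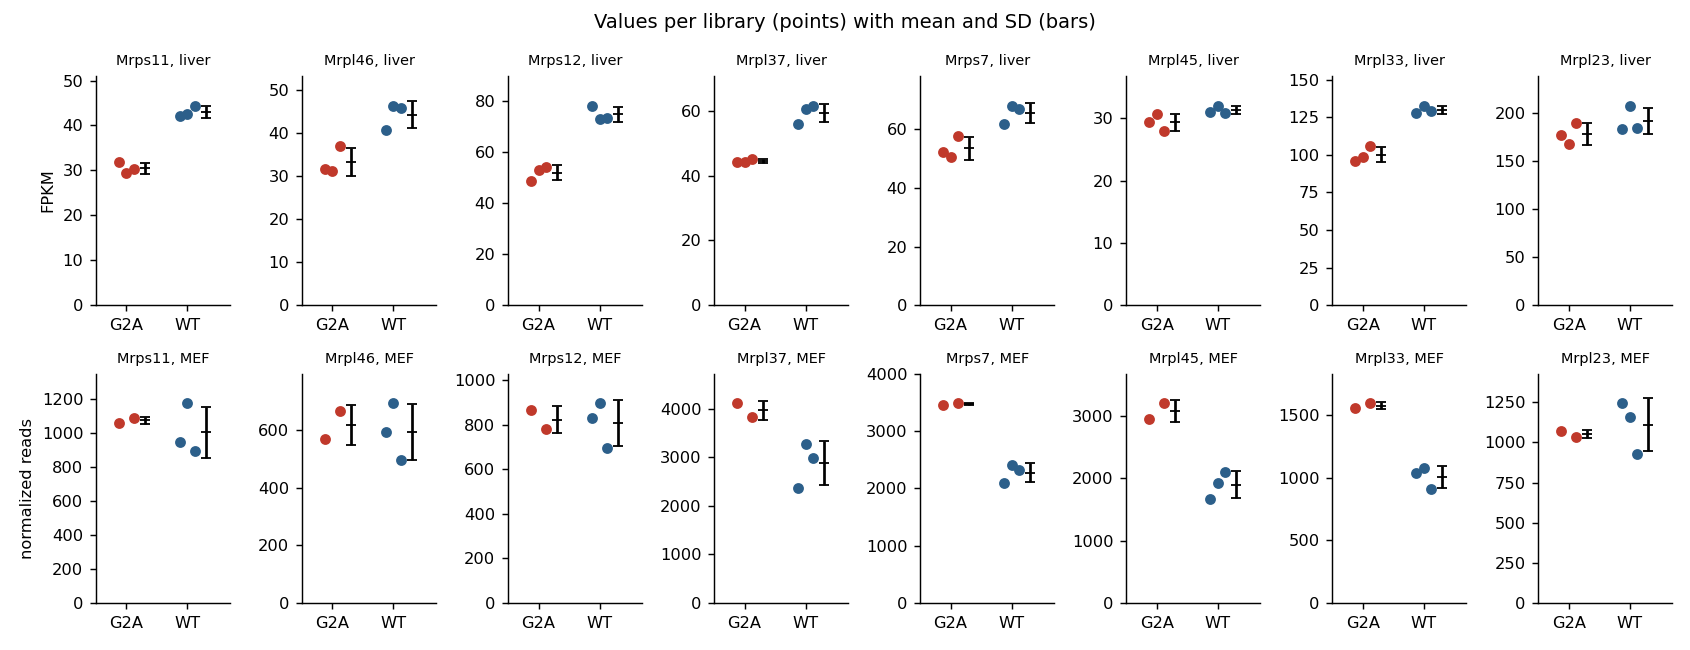
Values of 8 members in each library, in FPKM in liver (top) and normalized reads in MEFs (bottom), each axis starting at 0, with the mean and SD as black bars (G2A red, n = 3 livers and 2 MEFs; WT blue, n = 3 each). All genes shown except Mrpl23 are below WT in G2A liver without overlap. Mrpl37, Mrps7, Mrpl45 and Mrpl33 are above WT in G2A MEFs without overlap, while Mrps11, Mrpl46 and Mrps12 overlap there. Mrpl23 overlaps in both.

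The 76 members measured in both tissues were set side by side, without any library in common. In 72 of 76 the log2 fold change was below 0 in liver and above 0 in MEFs, against 30.2% of the 10818 genes tested in both. In 38 the groups did not overlap in either tissue, lower in G2A liver and higher in G2A MEFs, against 6.09% of those genes, and 0 members showed the reverse, against 3.51%. The liver side of each count carries the choice of the family. Across the 76 members the liver and MEF log2 fold changes had a Pearson r of -0.05 and a Spearman rho of -0.06, as a description over genes measured in the same libraries. Mrps12, lowest in liver, was at 0.03 in MEFs, whereas Mrpl45, at -0.09 in liver, was at 0.70. Mrpl16, Mrpl22, Mrpl37 and Mrps24 were among the 10 lowest in liver and at 0.60, 0.56, 0.47 and 0.47 in MEFs. Mrpl57, listed in liver as Mrp63 and so outside the rule there, had 17.8, 16.7 and 23.1 FPKM in G2A livers and 23.8, 24.2 and 24.9 FPKM in WT livers (log2 fold change -0.34) and a log2 fold change of 0.24 in MEFs.

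**Figure D4:**
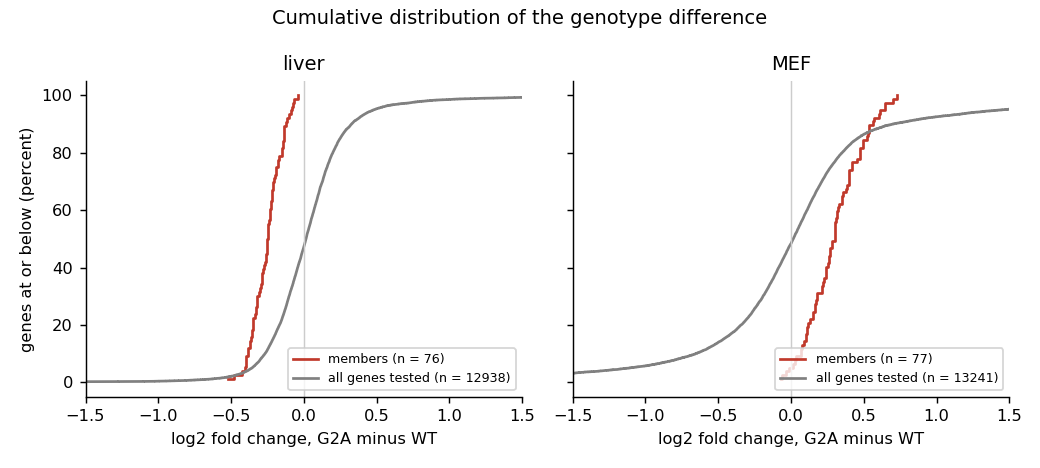
Cumulative share of genes (vertical axis, percent) at or below a log2 fold change, G2A minus WT (horizontal axis, cropped at -1.5 and 1.5), for the members (red) and all genes tested (grey). The members' curve lies left of the grey curve in liver (medians -0.25 and 0.01) and right of it in MEFs (medians 0.30 and 0.01).

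Genes that act beside the family in mitochondrial gene expression mostly had the same signs, and none passed an adjusted p of 0.05 in either tissue. The 7 mitoribosomal proteins with other names were all below 0 in liver (median -0.20) and all above 0 in MEFs (0.24). One of them, Mrp63, is Mrpl57 in MEFs and so a member there, and without it the other 6 had medians of -0.17 in liver and 0.34 in MEFs. Among them Gadd45gip1 had log2 fold changes of -0.37 and 0.48. Of 14 translation factors 13 were below 0 in liver (median -0.16) and 12 above 0 in MEFs (0.22), among them the elongation factor Tufm at -0.30 in liver and the membrane insertase Oxa1l at 0.40 in MEFs. Of 20 assembly factors 17 were below 0 in liver (median -0.18) and 16 above 0 in MEFs (0.17), among them the GTPases Mtg1 at -0.34 in liver and Noa1 at 0.46 in MEFs. For 17 genes of mitochondrial transcription and its regulators the medians were nearer 0, at -0.09 and 0.04. Import proteins and chaperones were below 0 in 18 of 21 cases in liver (median -0.23) and above 0 in 21 of 21 in MEFs (0.30). The mRNAs of the mitochondrial genome itself were looked for by 26 symbols. The liver and MEF values held 0 of these symbols, so those mRNAs could not be analysed here.

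The direction was not found in this family alone. In liver 71 of 81 nuclear-encoded respiratory chain subunits were below 0 (median -0.18), with 54 lower and 4 higher without overlap. So were 74 of 80 cytosolic ribosomal proteins (median -0.08), with 28 lower and 0 higher without overlap. The shares among all genes tested in liver were 15.7% lower and 11.8% higher. In MEFs 68 of 76 respiratory subunits were above 0 (median 0.23), with 52 higher and 2 lower without overlap. So were 78 of 79 cytosolic ribosomal proteins (median 0.30), with 51 higher and 0 lower without overlap. The shares among all genes tested in MEFs were 18.9% higher and 18% lower. No gene of these families was called in either tissue. Differences between the families were not tested.

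Cell division genes and markers of the cell types of the liver were read beside the members, and no gene of these lists passed an adjusted p of 0.05. In liver all 16 cell division genes were below 0 (median -0.34). Of these 14 were lower without overlap and 0 higher, against 15.7% and 11.8% of all genes tested. Their summed levels were 2021 to 2596 FPKM in G2A livers and 2826 to 3008 FPKM in WT livers. Of 15 erythroid markers 14 were below 0 (median -0.38, none at 0 FPKM), with sums of 1929.5 to 3565 FPKM in G2A livers and 2797 to 3865 FPKM in WT livers. Their mean deviation from the WT livers was -0.54, -0.67 and 0.08 in G2A livers 1, 2 and 3, and that of the cell division genes -0.38, -0.46 and -0.16. Of the 15 erythroid markers 3 were lower without overlap and 0 higher, against 15.7% and 11.8% of all genes tested. They were the transcription factor genes Klf1 and Gata1 and the erythropoietin receptor gene Epor. Klf1 was at 229 FPKM in G2A liver 3 and at 244 to 275 FPKM in WT livers, and Gata1 at 123 and 130 to 141 FPKM in these libraries. Of 14 hepatoblast markers 8 were below 0 (median -0.07), and of 9 macrophage markers 5 (median -0.16). Without overlap, 0 hepatoblast markers were lower and 1 higher, and 1 macrophage marker was lower and 2 higher. Of 10 progenitor markers 7 were above 0 (median 0.14), with 0 lower and 0 higher without overlap. Of 8 endothelial markers 7 were above 0 (median 0.25), with 3 higher and 0 lower without overlap. Their sums were 123.1 to 130.5 FPKM in G2A livers and 106.3 to 116.9 FPKM in WT livers. Mesenchymal markers were above 0 in 8 of 10 cases (median 0.75), with 5 higher and 0 lower without overlap. Their sums were 1038 to 2079 FPKM in G2A livers and 503 to 769.8 FPKM in WT livers. In MEFs the mesenchymal median was -1.04, with 5 of 9 below 0, and 13 of 16 cell division genes were above 0 (median 0.10). The part of these groups in the family's values was not tested, and in whole tissue fewer cells of a type and less RNA per cell cannot be told apart.

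**Figure D5:**
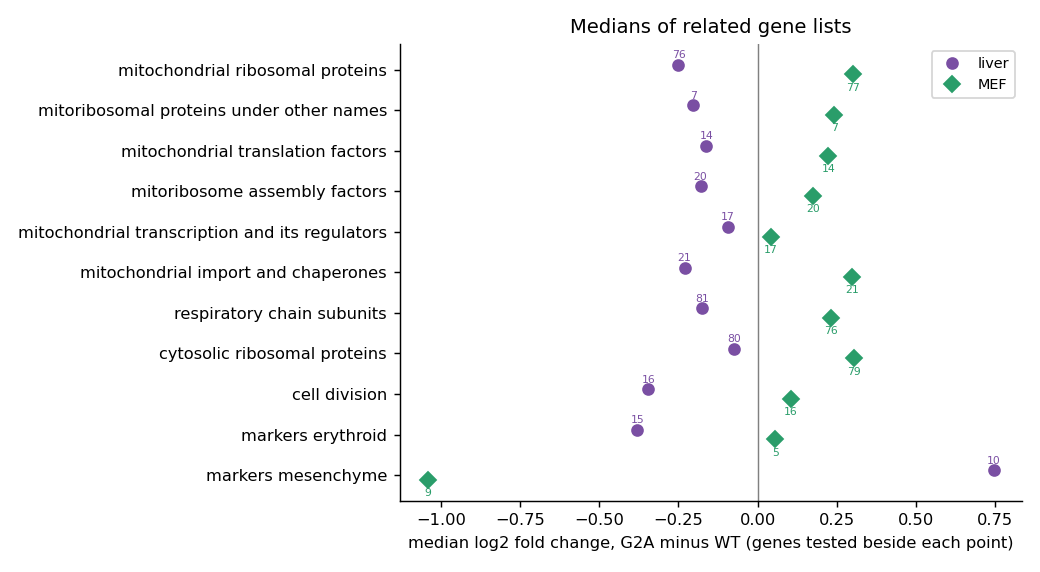
Median log2 fold change, G2A minus WT (horizontal axis), of the members and of related gene lists in liver (purple circles) and MEFs (green diamonds), with the number of genes tested printed by each point. The lists of the mitochondrial expression machinery lie left of 0 in liver and right of 0 in MEFs, and cell division and erythroid markers lie further left in liver (-0.34 and -0.38).

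Promoter sequences, which the choice of the family did not use, were searched for the letters of known motifs. None of these motifs was found in most members. RefSeq windows of 300 bases (GRCm38.p6) matched 68 of 77 members and 17492 protein-coding genes in all, of which 8938 were tested in liver. The letters CCGGAAG, a core of ETS factor sites such as that of GABP, were found on either strand in 25 of 68 members (36.8%), against 12.9% of all genes and 19.4% of those tested in liver. The letters AAGATGGC, as bound by YY1, were found in 12 of 68 (17.6%), against 3.57% and 5.12%. The end of the first motif can be the start of the second. The NRF1 palindrome (TGCGC placed after its reverse complement) was found in 4.41% of members, against 1.47% and 2.35%. The E-box CACGTG was found in 7.35%, against 8.91% and 11.9%, and the CRE TGACGTCA in 2.94%, against 2.54% and 3.59%. The ATF4 letters TGATGCAA were found in 0 members, against 1.01% and 0.694%. Median GC content was 58.5% in 74 windows of members and 56.3% in all windows (a gene can have several). These shares are descriptions of the letters and were not tested.

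Whether members with and without a motif differed was not tested. The 25 with the ETS letters had a median log2 fold change of -0.28 in liver and 0.27 in MEFs, against -0.25 and 0.28 for those without. The 12 with the YY1 letters had medians of -0.30 in liver and 0.32 in MEFs, against -0.25 and 0.26. The window of Mrps11 printed above holds the YY1 letters outside its shared stretch. Among the 5 members with the smallest MEF p-values, Mrps7, Mrpl33 and Mrps18a hold ETS or YY1 letters. Mrpl45 and Mrpl10 hold none of the motifs searched. The windows of Mrps7 (chr11:115603890-115604189, plus strand, YY1 letters in capitals) and Mrpl33 (chr5:31613701-31614000, plus strand, ETS letters in capitals) are shown as examples that hold such letters.
Mrps7: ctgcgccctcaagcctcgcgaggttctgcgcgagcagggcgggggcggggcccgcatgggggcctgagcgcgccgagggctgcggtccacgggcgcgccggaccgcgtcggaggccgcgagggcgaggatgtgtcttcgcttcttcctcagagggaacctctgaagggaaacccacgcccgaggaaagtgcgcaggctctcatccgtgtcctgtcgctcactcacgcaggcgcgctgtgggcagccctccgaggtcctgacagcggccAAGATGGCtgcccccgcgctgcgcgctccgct
Mrpl33: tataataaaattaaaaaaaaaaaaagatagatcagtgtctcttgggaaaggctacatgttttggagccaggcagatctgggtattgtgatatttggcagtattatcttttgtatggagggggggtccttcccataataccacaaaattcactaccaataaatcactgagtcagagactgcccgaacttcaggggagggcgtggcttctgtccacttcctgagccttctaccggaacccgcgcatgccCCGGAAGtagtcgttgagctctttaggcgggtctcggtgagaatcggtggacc

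A start shared with a neighbour on the opposite strand was common in the family. Of 68 members 25 (36.8%) had a protein-coding gene starting within 1000 bases in the opposite orientation, against 9.61% of all protein-coding genes and 14% of those tested in liver. Mrps11 and Mrpl46 were a pair of members, and the others had partners outside the family. Of these partners 16 of 22 were below 0 in liver (median -0.09) and 20 of 23 above 0 in MEFs (median 0.13), both nearer 0 than the members' medians of -0.25 and 0.30. The members lie on 17 chromosomes, with 10 on chromosome 11 and 8 on chromosome 17. In GENCODE vM1 22 members overlap another protein-coding gene, 19 of them on the opposite strand, so their values may hold reads of that gene.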

How the data were processed

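Total RNA from E12.5 livers and immortalized MEFs was sequenced. Per the labels' protocols, reads were trimmed to 50 bases and mapped to mm9 with TopHat 2.1.1; the submitters' processing notes also name Cufflinks 2.2.1 and mm10. The liver values deposited by the authors were taken as FPKM; their header names no unit, and FPKM was inferred here from Cufflinks and from values that are not whole. The MEF values were deposited as a normalized signal per gene; 100% of them were whole within 0.01 after rescaling by a size factor per library (0.958 to 1.06), which recovered the read counts. The sources used here do not give the annotation, the counting tool or whether strand was used, so reads of overlapping genes may be shared.

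The genotype difference in log2(value + 1) was estimated per tissue with limma 3.58.1 (R 4.3.3, variance trend), over genes with at least 1 FPKM in at least 3 liver libraries or at least 10 normalized reads in at least 2 MEF libraries, with Benjamini-Hochberg adjustment over all genes tested and a threshold of 0.05. Fold changes are on this log2(value + 1) scale, which understates those of low genes. The tables were never fitted together. The recovered MEF counts were also tested with edgeR 4.0.16. Scripts were tested on simulated data. Alternatives were a pseudocount of 0.1, the filter left out or raised to 5 FPKM or 50 normalized reads, median-ratio scaling, quantile normalization, no variance trend, library weights, the sample number as a block, each library left out in turn and, added after seeing the data, liver values rescaled without small RNA genes. Whether numbers pair libraries was checked by correlating deviations from the group means. In liver same-numbered libraries had r of 0.18, -0.10 and 0.10, and differently numbered ones ran from -0.22 to 0.13. With so few libraries this check cannot settle pairing. The main fit took no pairs, so any pairing of littermates was left out of it.

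The members and gene lists were chosen with earlier results of these data known. Named members were Mrps11 and Mrpl46, the 10 lowest and 5 highest log2 fold changes in liver, the 5 smallest p-values per direction in MEFs (4 members were below 0), the 5 highest and 5 lowest WT liver levels, and from each list the members called or up to 3 with the smallest p, of which some are named. Positions came from GENCODE vM1 (NCBIM37) and promoters from RefSeq (GRCm38.p6), read with Python 3.11.15; no coordinates were converted.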

Additional observations from a re-analysis of the deposited data

Results flagged for a closer look

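The genotype difference ran in opposite directions in the 2 tissues for many members. In 38 members all G2A livers were below all WT livers and all G2A MEFs above all WT MEFs, against 6.09% of the 10818 genes tested in both tissues. This difference between tissues was not tested, its liver side carries the choice of the family, and the tissues were measured on separate scales. Among the named members, the MEF log2 fold change minus the liver log2 fold change was 1.02 for Mrpl33, 0.99 for Mrpl16, 0.94 for Mrpl22 and 0.90 for Mrps7. It was 0.88 for Mrpl37, 0.85 for Mrps24, 0.79 for Mrpl45, 0.77 for Mrps18a, 0.77 for Mrps21, 0.77 for Mrpl11, 0.70 for Mrpl55 and 0.64 for Mrpl10. Mrpl34, picked after its values were seen, was at 1.08.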

How the results depend on the processing

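The liver median of the members was below 0 in all 15 alternatives and the MEF median above 0 in all 14. Quantile normalization moved the liver median to -0.19; with a library left out it ran from -0.28 to -0.22, and in MEFs from 0.24 to 0.37. Counts of called members moved most, and the cause was not tested. In liver, 64 members were called with library weights (with 6057 of 12938 genes), and 0 to 47 with a library left out, the 47 without G2A liver 3. In MEFs, 44 were called with library weights (with 6124 of 13241 genes), and 0 to 11 with a library left out, the 11 without WT MEF 3 (with 3076 of 12963 genes). A replicate block on the sample number gave 17 called members in MEFs (with 3784 of 13241 genes) and 0 in liver; the MEF block fit drops WT MEF 3, which has no G2A partner, so its fold changes equal those without that library. Median-ratio scaling returned the same MEF values, which already carry such a scaling. Neither is a separate check of the MEF directions. Same-numbered MEF libraries had r of 0.13 and -0.03, so their numbers do not show pairs. All 11 called without WT MEF 3 were also called under the block.

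In liver 2 of 76 members turned in at least 1 setting, and in MEFs 14 of 77 did: Mrpl23, Mrpl30, Mrpl36, Mrpl41, Mrpl46, Mrpl47, Mrpl48, Mrpl50, Mrpl51, Mrps6, Mrps12, Mrps15, Mrps26 and Mrps34. Quantile normalization put Mrpl24 at 0.051 and Mrpl23 at 0.021 in liver, and Mrpl48 at 0.015 and Mrpl36 at 0.029 in MEFs. Mrpl46 in MEFs was at -0.055 under the replicate block. With a MEF library left out, Mrpl46 ran from -0.055 to 0.18, Mrpl36 from -0.13 to 0.10, Mrpl48 from -0.26 to 0.083 and Mrpl23 from -0.19 to 0.021. Liver read depth is unknown, so no counting error could be given there, while every member had at least 485 reads in each MEF library.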
